A study of Mus musculus with 16 samples.

Results

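The genes Fos, Fosb, Jun, Junb, Egr1, Atf3, Ier2, Nr4a1, Btg2 and Ier3 are immediate early response genes, and they were taken by symbol from the count and FPKM tables of mouse gastrocnemius muscle. All 10 symbols were found among 35415 genes, and all 10 passed the low-count filter that left 14749 genes for testing. Single mice of the same group differed by up to 27.6-fold, as for Fosb in the T group. None of the 10 passed the edgeR test in any of 7 comparisons of tumor and training. DESeq2, run as an alternative, called Ier3 for the tumor over both training states and for the tumor among trained mice. Ier3, the nearest in edgeR, averaged 13.4 ± 2.64 FPKM (SD, n = 8) in tumor-bearing and 9.91 ± 1.58 FPKM (n = 8) in tumor-free mice. In contrast, Fosb spanned 55.4-fold and Fos 9.66-fold from the lowest to the highest of the 16 mice. FPKM (fragments per kilobase, scaled to a common library total) takes gene length into account, so FPKM levels may be compared between genes.

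Immediate early genes are transcribed soon after a cell is stimulated, by transcription factors that are already present and that kinases switch on, so that no new protein has to be made first. Most of their messages are short-lived, and a level therefore reads recent stimulation. Their products are largely transcription factors, which pass the signal on to later genes. In skeletal muscle they are known to rise for a short time after contraction, stretch, injury and handling.

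The mice were wild type male BALB/c animals, 8 weeks old at purchase, and each group is represented by 4 libraries of polyA RNA from 4 mice. Group C (control) and group E (exercise) received saline injections, whereas group T (tumor-bearing) and group TE (tumor-bearing and exercise) received CT26 cells, a colon carcinoma line of BALB/c origin. The injections were made under pentobarbital anesthesia beneath the skin of the hind limb, which is also the limb region that holds the sampled muscle, and the side of the muscle is not given in the sources used here. For 4 weeks from the day after injection, groups E and TE ran on a treadmill on 6 days of each week, with sessions of 60 min and a speed of 14 m/min, whereas groups C and T were set on a stationary treadmill. All mice were killed with a pentobarbital overdose. The time between the last run and collection, and the hour of collection, are not given in the sources used here, which bears on genes with short-lived messages.

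Totals were close, from 35628211 to 37635741 counts per library, and 17631 to 18563 genes had at least 1 count. The tissue label fitted its markers: the 8 muscle fibre markers were detected in each library, at a summed 110378 to 132049 CPM (counts relative to library size, with no account of gene length). The library of T mouse 3 had the lowest quality weight of the 16 in limma-voom, 0.493, against up to 1.66 for the others. Because several comparisons of the immediate early genes turn on that mouse, those values are also given without it. In whole muscle, fewer cells that use a gene and less RNA per cell cannot be told apart. The edgeR p-values set each difference against the spread between mice within groups, estimated for each gene and drawn toward the trend over all genes.

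Promoter stretches are shown for Fos, Fosb, Junb and Btg2, the 4 members that were highest in T mouse 3, and for Ier3, the member that came nearest to the threshold of the test. Promoters of 8 of the 10 members were used from the RefSeq promoter table, made on GRCm38.p6. Those of Egr1 and Ier2 were not used, which does not show that the table lacks them. Each of the 8 was placed at 1 position in GRCm39. Each stretch begins 250 bases before the RefSeq start of the gene and ends at that start or at the first base of an exon of that gene's strand in the GENCODE annotation. Capitals mark the cAMP response element half-site, TGACG or CGTCA, which factors of the CREB and ATF family are known to bind.
Fos (chr12:85520414-85520657, plus strand): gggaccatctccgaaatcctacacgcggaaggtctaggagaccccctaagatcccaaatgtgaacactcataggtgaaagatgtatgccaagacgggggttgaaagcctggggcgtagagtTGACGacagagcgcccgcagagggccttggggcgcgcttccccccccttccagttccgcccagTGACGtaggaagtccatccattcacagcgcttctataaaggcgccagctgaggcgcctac
Fosb (chr7:19043977-19044220, minus strand): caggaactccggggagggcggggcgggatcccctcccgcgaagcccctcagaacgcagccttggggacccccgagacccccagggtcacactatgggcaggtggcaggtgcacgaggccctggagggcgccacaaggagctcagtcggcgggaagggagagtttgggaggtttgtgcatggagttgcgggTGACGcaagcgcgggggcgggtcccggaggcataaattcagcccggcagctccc
Junb (chr8:85705378-85705627, minus strand): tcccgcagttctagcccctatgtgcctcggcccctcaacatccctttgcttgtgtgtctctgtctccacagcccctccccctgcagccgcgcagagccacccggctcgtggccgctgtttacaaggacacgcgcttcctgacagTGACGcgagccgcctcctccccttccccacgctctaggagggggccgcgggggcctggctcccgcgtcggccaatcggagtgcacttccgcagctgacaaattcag
Btg2 (chr1:134006894-134007143, minus strand): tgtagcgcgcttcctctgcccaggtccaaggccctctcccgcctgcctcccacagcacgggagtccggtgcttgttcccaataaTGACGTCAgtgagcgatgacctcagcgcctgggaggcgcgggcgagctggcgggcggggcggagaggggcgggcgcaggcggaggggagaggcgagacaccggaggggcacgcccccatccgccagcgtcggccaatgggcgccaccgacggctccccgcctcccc
Ier3 (chr17:36132355-36132567, plus strand): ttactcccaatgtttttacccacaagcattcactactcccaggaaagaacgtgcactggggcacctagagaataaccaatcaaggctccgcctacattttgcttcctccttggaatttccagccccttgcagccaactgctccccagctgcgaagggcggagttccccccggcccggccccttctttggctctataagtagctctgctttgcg
The half-site was searched on both strands of the full 250 bases, where it was found in 6 of the 8 promoters. It occurred in 17.8% of 32851 promoters of the same length. Counted from -1 for the base before the start, Fos had 2 half-sites, beginning at -129 and -66, Fosb had 1 at -60 and Junb had 1 at -106. In Btg2 the 2 half-sites overlapped within 1 full palindrome, TGACGTCA, a sequence found in 1.55% of promoters. Nr4a1 had 4 half-sites, a number reached by 0.137% of promoters, and Atf3 had 1. No half-site was found in the 250 bases of Jun and Ier3. A CArG box, which serum response factor is known to bind, was searched only as the exact letters CCWWWWWWGG, where W is A or T. It was found in 0 of the 8 windows and in 1.47% of all promoters. Egr1 was not among the 8, and looser matches and sites beyond the window were not searched. The letters TATAAA were found in 1 of the 8, Fos, and in 12.4% of all promoters. These matches describe letters in a short window only.

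On the FPKM scale, Jun was the most abundant of the 10, with a mean of 41.2 ± 8.18 FPKM (SD, n = 16 mice), followed by Nr4a1 at 28.7 ± 8.05. Btg2, Ier3 and Fos had mean levels of 12.6 ± 4.28, 11.6 ± 2.75 and 10.5 ± 9.42 FPKM and did not differ beyond their spread. The mean levels of Junb, Ier2 and Egr1 were also close, at 7.88 ± 3.08, 7.80 ± 1.46 and 7.03 ± 4.43 FPKM. Atf3 followed at 4.68 ± 2.62 FPKM, and Fosb was lowest at 0.452 ± 0.625 FPKM, from 5 to 283 counts per library. The order of the means hides the spread, because the SD of Fosb exceeded its mean and the SD of Fos was nearly as large as its mean. In contrast, the highest mouse had only 1.86 times the lowest for Ier2 and 2.16 times for Jun.

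**Figure D1:**
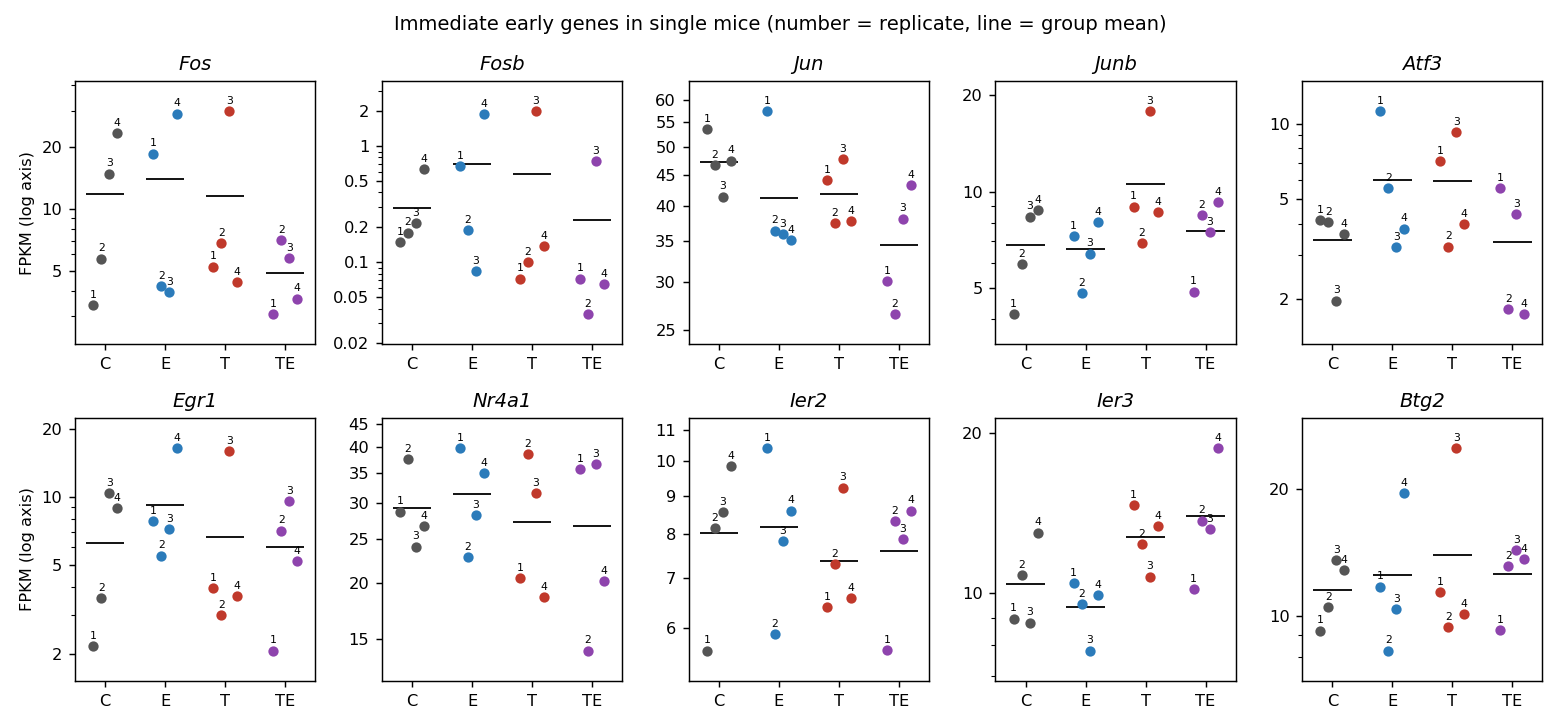
FPKM of the 10 immediate early genes (log axis) in each mouse of groups C, E, T and TE, where a point is 1 mouse, its number is the replicate and a line is the group mean. T mouse 3 stands above the other T mice for Fos, Fosb, Junb, Egr1 and Btg2, and the groups overlap for each gene except Ier3, for which the E mice (at most 10.5 FPKM) lie below the T mice (at least 10.7 FPKM).

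Fos and Fosb encode subunits of AP-1, a dimeric transcription factor in which a Fos protein needs a partner such as a Jun protein. Fos (chr12:85520658-85524047) measured 3.39, 5.72, 14.8 and 23.2 FPKM in C mice 1 to 4 and 18.6, 4.21, 3.94 and 29.0 FPKM in E mice 1 to 4. It measured 5.23, 6.82, 29.8 and 4.39 FPKM in T mice 1 to 4 and 3.08, 7.01, 5.73 and 3.66 FPKM in TE mice 1 to 4. Each of the first 3 groups therefore held mice under 7 FPKM and at least 1 mouse above 20 FPKM, whereas the 4 TE mice all stayed at or under 7.01 FPKM. The TE mean of 4.87 ± 1.83 FPKM (n = 4) was lower than the E mean of 13.9 ± 12.2, with a log2 fold change of -1.47 (SE 0.718, 95% interval -2.98 to 0.046), but the difference did not pass the edgeR test (adjusted p = 0.560). Without E mouse 4 the log2 fold change was -0.80. Between TE and T mice the log2 fold change was -1.23 (SE 0.717, adjusted p = 0.877 by edgeR), and without T mouse 3 it was -0.19.

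Fosb, the low-level relative of Fos (chr7:19036621-19043976), measured 0.149, 0.180, 0.218 and 0.635 FPKM in the C mice. The E mice measured 0.674, 0.190, 0.0844 and 1.88 FPKM, and the T mice 0.0723, 0.101, 2.00 and 0.137 FPKM. The TE mice measured 0.0723, 0.0360, 0.747 and 0.0649 FPKM. Every group had 1 or 2 mice well above its others, and they were C mouse 4, E mice 1 and 4, T mouse 3 and TE mouse 3. The log2 fold change between T and C mice was 0.96 (SE 1.10, adjusted p = 0.738 by edgeR), and it was -1.47 without T mouse 3. Between TE and T mice it was -1.28 (SE 1.12, adjusted p = 0.933 by edgeR) and 1.15 without that mouse. The direction of both comparisons thus rested on 1 library.

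Jun and Junb encode AP-1 subunits that can pair with each other and with Fos proteins. Jun (chr4:94937271-94940459) measured 53.6, 46.8, 41.5 and 47.6 FPKM in the C mice and 57.4, 36.4, 35.97 and 35.1 FPKM in the E mice. The T mice measured 44.1, 37.5, 47.8 and 37.8 FPKM and the TE mice 30.0, 26.5, 38.1 and 43.3 FPKM. The 2 lowest of the 16 mice were TE mice 2 and 1, and the groups overlapped. Over both tumor states, the trained mice averaged 37.9 ± 9.35 FPKM (n = 8) and the untrained mice 44.6 ± 5.49 FPKM (n = 8). The log2 fold change was -0.27 (SE 0.115, 95% interval -0.51 to -0.026) and did not pass the edgeR test (adjusted p = 0.419).

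Junb (chr8:85701113-85705359) measured 4.16, 5.94, 8.36 and 8.78 FPKM in the C mice and 7.25, 4.83, 6.41 and 8.05 FPKM in the E mice. It measured 8.98, 6.92, 17.8 and 8.62 FPKM in the T mice and 4.88, 8.46, 7.48 and 9.27 FPKM in the TE mice. T mouse 3 stood far above the other 15 mice, and T mice 1 and 4 lay close to the highest C mouse. The log2 fold change between T and C mice was 0.66 (SE 0.272, 95% interval 0.085 to 1.23) and did not pass the edgeR test (adjusted p = 0.275). Without T mouse 3 it was 0.31 (adjusted p = 0.692 by edgeR). Over both training states the tumor-bearing mice differed from the tumor-free mice by 0.44 on the log2 scale (SE 0.193, adjusted p = 0.304 by edgeR), and without T mouse 3 by 0.27.

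Atf3 encodes a member of the ATF and CREB family that is induced by many kinds of stress and often represses its targets. It is located at chr1:190902493-190950241. Atf3 measured 4.13, 4.07, 1.98 and 3.64 FPKM in the C mice and 11.2, 5.57, 3.23 and 3.83 FPKM in the E mice. The T mice measured 7.10, 3.25, 9.30 and 3.98 FPKM and the TE mice 5.57, 1.83, 4.36 and 1.75 FPKM. The group means were highest in the E mice (5.96 ± 3.65 FPKM, n = 4) and the T mice (5.91 ± 2.82), and lower in the C mice (3.45 ± 1.01) and the TE mice (3.38 ± 1.90). The 4 groups overlapped, with E mouse 1 and T mouse 3 the highest.

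The log2 fold change of Atf3 was 0.79 (SE 0.438) between T and C mice and 0.75 (SE 0.437) between E and C mice. It was -0.82 (SE 0.438) between TE and T mice. Without T mouse 3 the difference between T and C mice was 0.51 and that between TE and T mice was -0.53, and without E mouse 1 the difference between E and C mice was 0.25. The interaction, which asks whether training acted differently with and without a tumor, was -1.56 on the log2 scale (SE 0.619, 95% interval -2.87 to -0.26) and did not pass the edgeR test (adjusted p = 0.486). Leaving out E mouse 1 gave -1.06, and leaving out T mouse 3 gave -1.27. The pair comparisons with C and with T share those mice and are not separate evidence.

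Egr1 encodes a zinc finger transcription factor that growth factors and contraction are known to induce. It measured 2.18, 3.56, 10.4 and 8.91 FPKM in the C mice and 7.80, 5.48, 7.19 and 16.4 FPKM in the E mice. The T mice measured 3.93, 2.99, 15.99 and 3.63 FPKM and the TE mice 2.08, 7.08, 9.54 and 5.20 FPKM. E mouse 4 and T mouse 3 were the highest of the 16, while the other 3 T mice were all under 4 FPKM. The log2 fold change between T and C mice was 0.10 (SE 0.569, adjusted p = 0.961 by edgeR), -0.78 without T mouse 3, -0.17 without C mouse 1 and -0.094 without C mouse 2, so it had no stable direction.

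Nr4a1, an orphan nuclear receptor that is known to regulate metabolic genes in muscle, ranged from 14.1 FPKM in TE mouse 2 to 39.7 FPKM in E mouse 1. Its group means were 29.2 ± 5.86, 31.5 ± 7.45, 27.3 ± 9.43 and 26.7 ± 11.2 FPKM in the C, E, T and TE mice (n = 4 each). Its log2 fold changes over the 7 comparisons lay between -0.19 and 0.067, with SEs from 0.196 to 0.392 and adjusted p-values of at least 0.821 in edgeR.

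Ier2, a nuclear protein linked to transcriptional control, had the smallest span of the 10 genes from the lowest to the highest mouse, 1.86-fold in FPKM. Its group means were 8.04 ± 1.77, 8.18 ± 1.87, 7.38 ± 1.29 and 7.60 ± 1.36 FPKM in the C, E, T and TE mice (n = 4 each). The log2 fold changes lay between -0.096 and 0.041. The 95% interval of the difference between T and C mice was -0.48 to 0.28, which leaves room for modest changes.

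Btg2 encodes an antiproliferative protein that is known to bind the deadenylase complex that shortens messages. It measured 9.24, 10.5, 13.5 and 12.8 FPKM in the C mice and 11.7, 8.29, 10.4 and 19.5 FPKM in the E mice. The T mice measured 11.4, 9.42, 25.0 and 10.1 FPKM and the TE mice 9.27, 13.1, 14.3 and 13.7 FPKM. T mouse 3 and E mouse 4 were the highest, as they were for Egr1. The log2 fold change between T and C mice was 0.30 (SE 0.280, adjusted p = 0.675 by edgeR), and it was -0.12 without T mouse 3.

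Ier3 encodes a small protein that NF-kappa B and stress are known to induce and that affects cell survival. Ier3 (chr17:36132568-36133815) measured 8.96, 10.8, 8.81 and 13.0 FPKM in the C mice and 10.5, 9.54, 7.80 and 9.92 FPKM in the E mice. It measured 14.6, 12.4, 10.7 and 13.4 FPKM in the T mice and 10.2, 13.7, 13.2 and 18.7 FPKM in the TE mice. Of the 8 tumor-bearing mice, T mice 2 and 3 and TE mouse 1 lay below C mouse 4, the highest tumor-free mouse, and the other 5 lay above all 8 tumor-free mice.

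Over both training states, Ier3 differed between tumor-bearing and tumor-free mice by 0.47 on the log2 scale (SE 0.119, 95% interval 0.22 to 0.72), a fold of 1.38, and did not pass the edgeR test (adjusted p = 0.0630). The adjusted p-value was below 0.05 in edgeR when C mouse 4 (0.0436), T mouse 3 (0.0372) or TE mouse 1 (0.0200) was left out, and 0.00895 with DESeq2. Of 26 alternatives, 6 passed and 20 did not, with adjusted p-values up to 0.206, and up to 0.132 in edgeR with 1 library left out. Within trained mice alone, the log2 fold change of TE against E was 0.61 (SE 0.168, adjusted p = 0.180 by edgeR and 0.0398 by DESeq2). DESeq2 was the only 1 of 27 alternatives in which that comparison passed, and the adjusted p-values reached 0.487. Within untrained mice, T against C gave 0.33 (SE 0.168, adjusted p = 0.397 by edgeR). The interaction of tumor and training on Ier3 was 0.28 (SE 0.237, adjusted p = 0.730 by edgeR).

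Other signals moved with the tumor in the same libraries. The summed level of the 5 erythroid markers was 223 to 326 CPM in the C mice and 238 to 348 CPM in the E mice, against 471 to 524 CPM in the T mice and 554 to 785 CPM in the TE mice. The summed level of the 5 neutrophil markers was at most 3.43 CPM in the C mice and 3.78 CPM in the E mice, where up to 3 of the 5 were at 0. It was 7.71 to 42.5 CPM in the T mice and 9.91 to 16.2 CPM in the TE mice, where none was at 0. Between TE and E mice, the summed fibroblast markers (847 to 909 against 1134 to 1453 CPM) also lay apart, but they overlapped between T and C mice. The same held for smooth muscle and pericyte markers (1242 to 1462 against 1524 to 1689 CPM). TE mouse 4, the highest for Ier3, had the highest erythroid sum. Its sum of 7 lymph node markers was 102 CPM, against 3.68 to 35.7 CPM in the other mice. The part of these cells in the Ier3 difference was not tested.

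The comparisons in turn gave these counts for the 10 members, with an adjusted p under 0.05 in edgeR, with the Benjamini-Hochberg method over 14749 genes, as the call. Between T and C mice 0 of 10 members were called, against 0.678% of all genes, and 1 (Junb) had an unadjusted p under 0.05, as did 14.2% of all genes. Between E and C mice 0 were called, against 0.0881% of all genes, and 0 had an unadjusted p under 0.05, against 14.2% of all genes. Between TE and T mice 0 were called, as were 0% of all genes, and 0 had an unadjusted p under 0.05, against 5.88% of all genes.

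Between TE and E mice 0 members were called, against 0.231% of all genes, and 1 (Ier3) had an unadjusted p under 0.05, as did 9.23% of all genes. For the interaction 0 were called, as were 0% of all genes, and 1 (Atf3) had an unadjusted p under 0.05, as did 9.21% of all genes. For the tumor over both training states 0 were called, against 1.36% of all genes, and 2 (Ier3 and Junb) had an unadjusted p under 0.05, as did 14.2% of all genes. For training over both tumor states 0 were called, against 0.00678% of all genes, and 1 (Jun) had an unadjusted p under 0.05, as did 10.8% of all genes. DESeq2 called 1 member, Ier3, between TE and E mice and for the tumor over both training states, and 0 in the other 5 comparisons, and limma-voom called 0 in all 7. With shares this small among all genes, a count of 0 in 10 says little about these genes as a class.

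**Figure D2:**
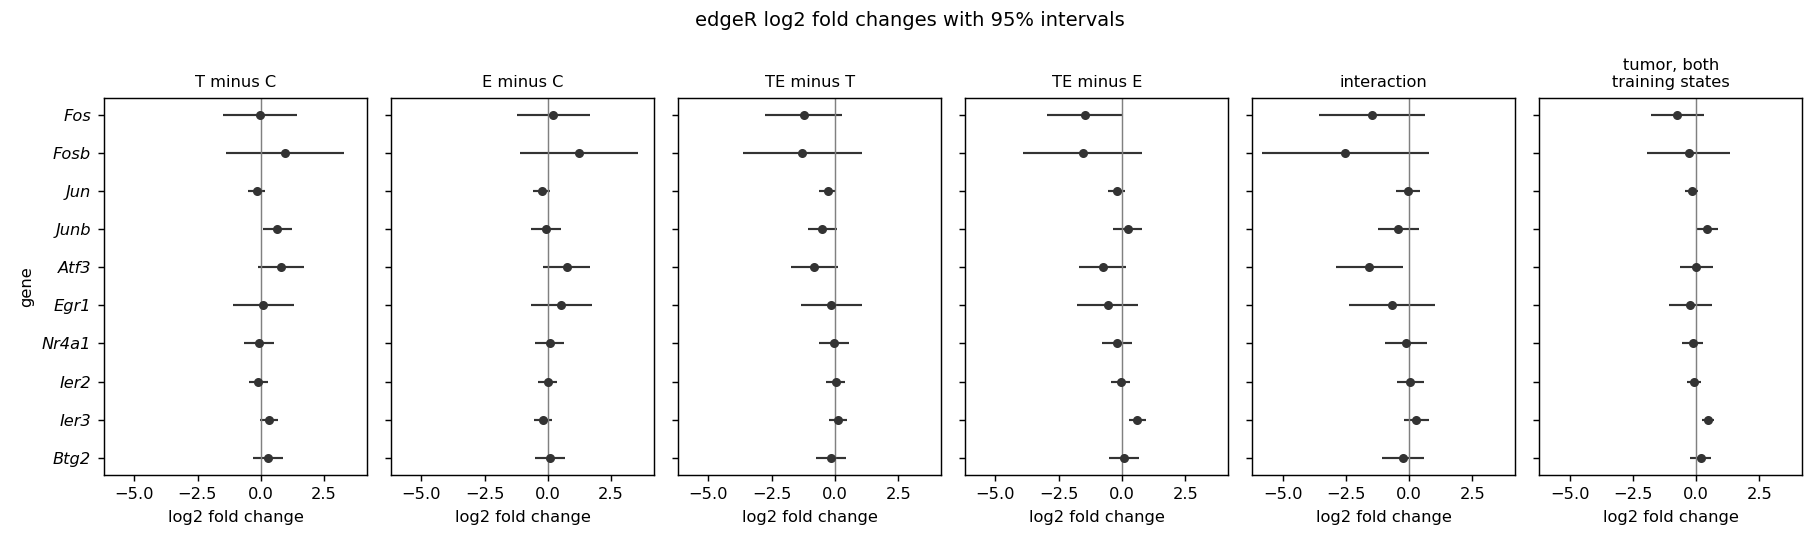
Log2 fold change of each immediate early gene (x axis, points) with its 95% interval (bars) from edgeR, for 6 comparisons, where a value right of 0 is higher in the group named first. The intervals of Fosb and Fos are the widest, that of Fosb for the interaction running from -5.82 to 0.79, whereas those of Jun, Ier2 and Ier3 are narrow, and the interval of Ier3 for the tumor over both training states runs from 0.22 to 0.72.

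The median log2 fold change of the 10 members was 0.20 between T and C mice, beside -0.0012 over all tested genes, and with 1 library left out it ran from -0.18 without T mouse 3 to 0.40 without C mouse 4. It was also negative with limma-voom (-0.14) and on log2(FPKM + 0.1) (-0.00052), and 0.072 with the replicate block. Between TE and T mice it was -0.22, beside 0.0014 over all tested genes, and with 1 library left out it ran from -0.41 without TE mouse 3 to 0.022 without T mouse 3. Between E and C mice the median was 0.075, but it was -0.11 without E mouse 4, -0.039 without C mouse 1 and -0.0035 without E mouse 1. Between TE and E mice the median was -0.20, and it kept its sign when any 1 of the 16 libraries was left out, from -0.33 to -0.034. For the interaction the median was -0.33, with 2 of the 10 above 0, beside 49.8% of all tested genes. Without T mouse 3 it was -0.016, with 5 of the 10 above 0, and without both T mouse 3 and TE mouse 4 it was 0.062, with 6 of the 10 above 0. The medians for the tumor and for training were -0.10 and -0.036. The first became 0.0016 without C mouse 4, and the second became 0.010 without E mouse 2, 0.019 without E mouse 3 and 0.054 without T mouse 3.

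The spread between mice of a group separated the members into steps. The SD of log2 CPM within groups was 1.72 for Fosb, 1.18 for Fos, 0.958 for Egr1 and 0.730 for Atf3, against a median of 0.193 over all tested genes. These SDs were higher than those of 99.7%, 99.0%, 97.3% and 92.2% of tested genes. Nr4a1, Btg2 and Junb followed at 0.469, 0.451 and 0.449. Ier2, Ier3 and Jun had the smallest SDs of the 10, at 0.291, 0.265 and 0.261. Among the 500 tested genes nearest in level, the median SD was 0.160 for Ier2, 0.158 for Ier3 and 0.105 for Jun, and these members lay above 91.8%, 86.8% and 93.6% of them. Fosb has the fewest counts of the 10, but the 500 genes nearest to it in level had a median SD of 0.513, and Fosb lay above 99.6% of them. The other 6 members lay above at least 97.8% of the genes nearest in level.

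**Figure D3:**
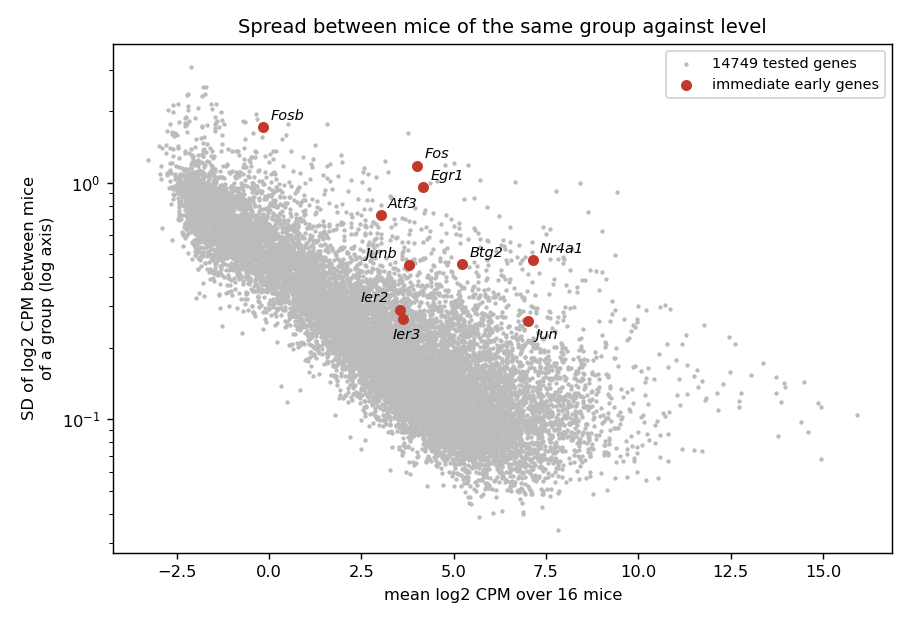
SD of log2 CPM between mice of the same group (log axis) against the mean log2 CPM over 16 mice, for all 14749 tested genes (grey) and the 10 immediate early genes (red). Fos (1.18), Egr1 (0.958) and Fosb (1.72) lie along the upper edge of the cloud, whereas Ier2 (0.291) and Ier3 (0.265) lie within it.

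Over the 16 mice, the 15 pairs among Fos, Fosb, Egr1, Junb, Btg2 and Ier2 had a Pearson r of log2 CPM from 0.399 to 0.820, with a median of 0.713. Spearman's rho ran from 0.0471 to 0.797. After each group mean was taken away, r ran from 0.519 to 0.922, and without the 2 mice farthest from the median it ran from 0.0238 to 0.797, so some pairs rest on those mice. These 6 genes were set apart after the correlations were seen, and the values share libraries and their normalization.

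The 6 pairs among Jun, Nr4a1, Atf3 and Ier3 had r from -0.373 to 0.482, and the 24 pairs between them and the other 6 genes had r from -0.222 to 0.514, with a median of 0.0886. For those 24 pairs rho ran from -0.453 to 0.621, and r without the 2 farthest mice ran from -0.431 to 0.711, so both ranges overlapped those of the 15 pairs. Junb had a higher rho with Ier3 (0.621) than with Fosb (0.0471), and the 10 genes did not divide cleanly into 6 and 4. Fos correlated with Ier2 at r = 0.755, with Egr1 at 0.788 and with Ier3 at -0.123 (16 mice each, as a description).

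T mouse 3 had the highest level of the 16 mice for 4 members, which were Fos, Fosb, Junb and Btg2, both in FPKM and in CPM, and was among the top 3 for 8 members in FPKM and 7 in CPM. E mouse 1 was the highest for Atf3 and Ier2 on both scales. It was also the highest for Jun and Nr4a1 in FPKM, whereas in CPM C mouse 1 was the highest for Jun and T mouse 2 for Nr4a1. E mouse 4 was the highest for Egr1 and TE mouse 4 for Ier3. At the other end of the FPKM scale, TE mouse 1 was among the lowest 3 for 7 members and C mouse 1 for 6. The mean z score of log2 CPM over the 10 members was 1.36 in T mouse 3, 0.760 in E mouse 1, 0.672 in E mouse 4 and 0.596 in C mouse 4, so high mice occurred in trained and untrained and in tumor-bearing and tumor-free groups.

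**Figure D4:**
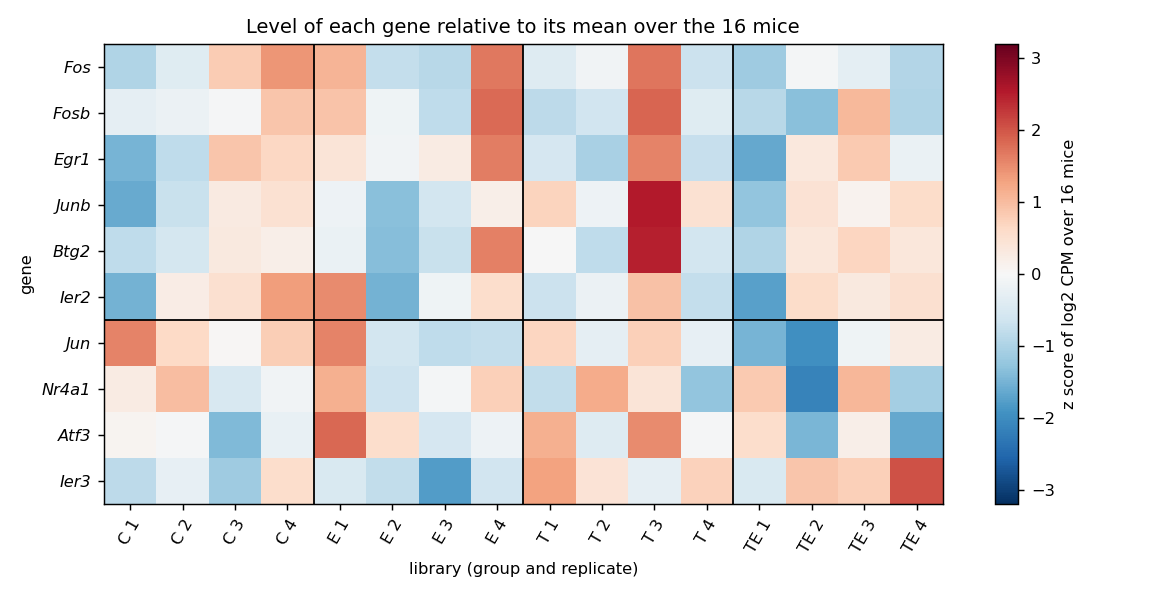
z score of log2 CPM over the 16 mice (color, red high and blue low) for each immediate early gene (rows) in each library (columns, group and replicate). The upper 6 genes are all high in T mouse 3 and mostly high in E mouse 4 and C mouse 4, and the lower 4 follow less closely, with Ier3 highest in TE mouse 4 at 2.03.

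In T mouse 3 the summed level of 6 glucocorticoid-induced genes was 2462 CPM, above the 544 to 1617 CPM of the other 15 mice, and that of 6 heat shock genes was 336.6 CPM, the highest of the 16 by a small margin over TE mouse 1 at 323.6 CPM. Over the 16 mice, the mean z score of the members had a Pearson r of 0.422 and a Spearman rho of 0.353 with the glucocorticoid-induced sum, and of -0.0475 and 0.115 with the sum of clock genes. The summed level of 5 endothelial markers was 703.5 CPM in T mouse 3, against 504 to 553 CPM in the other T mice and 637 to 703.5 CPM in the E mice. Of these, E mice 2 (696.6 CPM) and 3 (676 CPM) had low mean z scores of the members, -0.674 and -0.610. The endothelial sum had a Pearson r of 0.439 and a Spearman rho of 0.371 with the mean z score of the members, the highest r of the marker lists summed here. The sum of 5 smooth muscle and pericyte markers was 1527 CPM in T mouse 3, against 1101 to 1281 CPM in the other T mice and 1524 to 1689 CPM in the E mice. T mouse 3 was also the highest T mouse for the sums of Schwann cell markers (415 CPM against 194 to 306 CPM), satellite cell markers (21.9 against 14.9 to 18.5 CPM), adipocyte markers (51.1 against 4.67 to 41.4 CPM) and fibroblast markers (1055 against 669 to 1000 CPM), and for each of these 4 sums at least 1 mouse of another group was as high or higher. The part of vessel and other cells, of stress hormones, of the hour of collection and of library quality in the high mice was not tested.

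Outside the 10 members, the genes whose levels most resembled the members' mean z score, among 14739 genes over 16 mice, were C87436 (Pearson r = 0.852), Ctdsp2 (0.842), Spry1 (0.816), Phc1 (0.788) and 9330159F19Rik (0.772). Pou6f1 (0.768), Agap3 (0.764), Krt80 (0.758), Abhd4 (0.753) and Zfp384 (0.752) followed. T mouse 3 was the highest mouse for 8 of these 10 genes. Spry1 encodes an inhibitor of receptor kinase signaling, and its level ran from 11.9 to 19.9 FPKM. From the related lists, 5 genes near the top of the order are named after their values were seen. They were Zfp36, which promotes decay of short-lived messages, at rank 12 (r = 0.748), Ccn1 at rank 26 (0.711), Apold1 at rank 38 (0.683) and the phosphatase genes Dusp1 at rank 48 (0.664) and Dusp6 at rank 66 (0.647). Over all the related lists, r ran from -0.381 for Creb1 to 0.748 for Zfp36. Dusp5 (-0.216), Gadd45b (-0.204) and Ier5 (-0.193), from the same lists as the named genes, went the other way.

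The other genes of the pathway were described from 5 lists. In each of the 7 comparisons at most 1.36% of all genes were called, so a count of 0 in lists of this size says little. Of the 12 other AP-1 and ATF factors 10 were tested, since Fosl1 and Batf3 were below the filter, and 0 were called in any of the 7 comparisons. Between T and C mice 4 of the 10 had an unadjusted p under 0.05, as did 14.2% of all genes. The small Maf genes Mafg (log2 fold change 0.41, adjusted p = 0.112 by edgeR), Maff (0.84, 0.124) and Mafk (0.31, 0.193) had higher means in the T mice, and without T mouse 3 their log2 fold changes were 0.41, 0.65 and 0.22. Mafg passed in 2 of 27 alternatives (adjusted p = 0.0350 by edgeR without T mouse 4), Maff in 1 and Mafk in 0. The fourth, Jund, had a lower mean in the T mice (log2 fold change -0.28, adjusted p = 0.349 by edgeR). Jund, a Jun relative, had means of 13.1 ± 1.37, 10.4 ± 2.31, 10.7 ± 1.62 and 8.66 ± 0.401 FPKM in the C, E, T and TE mice (n = 4 each). Its log2 fold change for training over both tumor states was -0.34 (SE 0.0922, adjusted p = 0.225 by edgeR), and it passed in 1 of 26 alternatives.

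Of the 8 EGR and NR4A relatives 7 were tested, since Egr4 was below the filter, and 0 were called in the 7 comparisons. Nr4a3, a receptor that is known to respond to exercise, averaged 0.545 ± 0.304 FPKM in the C mice and 1.62 ± 1.18 FPKM in the E mice, with a log2 fold change of 1.54 (SE 0.624, adjusted p = 0.289 by edgeR) that was 0.98 without E mouse 2. Nr4a2 and Nab2, which encodes a corepressor of EGR proteins, had tumor log2 fold changes of -0.53 and -0.42 over both training states (adjusted p = 0.186 and 0.185 by edgeR).

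Of 25 other immediate early genes 0 were called. For the tumor over both training states 6 of the 25 had an unadjusted p under 0.05, against 14.2% of all genes. The nearest to a call were Cebpd and Cebpb, which encode transcription factors of the acute phase response, and the kinase gene Sik1, all for the tumor over both training states. Their log2 fold changes were 1.03 (SE 0.274, adjusted p = 0.0761 by edgeR), 0.34 (SE 0.0910, adjusted p = 0.0772) and 1.04 (SE 0.314, adjusted p = 0.124). T mouse 3 had 28.6 FPKM of Cebpd against 6.58 to 9.05 FPKM in the other T mice, and 11.2 FPKM of Sik1 against 2.35 to 2.65 FPKM. Without T mouse 3 the log2 fold changes were 0.69 for Cebpd, 0.32 for Cebpb and 0.60 for Sik1. In edgeR, Cebpd had an adjusted p-value below 0.05 without T mouse 2 (0.0326) or TE mouse 1 (0.0311), and Cebpb without TE mouse 1 (0.0243). Over all kinds of alternatives, 4 of 26 passed for Cebpd and 3 of 26 for Cebpb, with adjusted p-values up to 0.317 and 0.221. Of 24 upstream kinases and factors 0 were called, and Mrtfa, a coactivator of serum response factor, was the nearest for the tumor over both training states (log2 fold change -0.37, SE 0.113, adjusted p = 0.123 by edgeR). Mrtfa had an adjusted p-value below 0.05 in edgeR without E mouse 2 (0.0399) or T mouse 2 (0.0330), and in 3 of 26 alternatives in all, with adjusted p-values up to 0.222.

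Of 18 genes listed as feedback inhibitors 1 was called, Nfkbiz, for the tumor over both training states, where 1.36% of all genes were called. It encodes an atypical I-kappa-B protein of the nucleus, and whether it acted as an inhibitor here was not tested. Nfkbiz measured 0.565, 0.659, 0.851 and 0.512 FPKM in the C mice and 0.712, 0.578, 0.617 and 0.669 FPKM in the E mice. The T mice measured 0.859, 0.771, 1.34 and 1.19 FPKM and the TE mice 0.760, 1.28, 0.707 and 1.57 FPKM. Nfkbiz rose by 0.75 on the log2 scale (SE 0.173, adjusted p = 0.0394 by edgeR), although C mouse 3 was above T mouse 2 and TE mice 1 and 3. The adjusted p-value was below 0.05 in 9 of 26 alternatives and ranged from 0.00259 to 0.2005. When 1 library was left out it stayed below 0.05 without C mouse 3, T mouse 1, T mouse 2, TE mouse 1 or TE mouse 3, and did not without any of the other 11.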

How the data were processed

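Libraries of gastrocnemius RNA from 16 mice were analysed, and the sample labels assigned 4 to each group (C, E, T, TE). Per the labels, the authors processed reads with fastp 0.20.1, HISAT2 2.1.0 and HTSeq 0.11.2 on GRCm39, and deposited raw counts per gene. The authors also deposited FPKM values, which for 11001 genes were checked to equal the counts over the product of gene length and the library's total. The annotation release and strand setting are not given in the sources used here, so reads of overlapping antisense genes cannot be told apart. The library kit version differs between the labels (V6) and the study's methods (V5), and 1 batch is given for all libraries. The tables held 0 columns of other samples.

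Counts were tested with edgeR 4.0.16 in R 4.3.3, with TMM factors, filterByExpr, glmQLFit and glmQLFTest (two-sided) and 1 coefficient per group over all 16 libraries. The p-values were adjusted by the Benjamini-Hochberg method over 14749 genes, with 0.05 as the threshold. The 7 comparisons were T vs C, E vs C, TE vs T, TE vs E, the interaction, and the tumor and training averaged over the other factor. Levels were compared as log2 CPM with a prior count of 2. The 3-count floor of a library was 0.0842 CPM or less, and PCR duplicates were not marked by molecular identifiers. Scripts were tested on simulated data. Replicate pairs of a group differed by more than sampling noise (chi-square per degree of freedom 13.4 to 65.8 over 24 pairs).

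Named genes were the 10 members, in each list those called or else up to 3 with the smallest p, and the 10 genes most correlated with the members' mean z score. In addition, 5 list genes were named for their correlation with that score after it was seen. The members and lists were chosen with earlier results of these data known. Replicate numbers recur in each group, but same-number mice did not deviate together (correlations -0.241 to 0.214 over 24 pairs), so they were not paired. Alternatives were DESeq2 1.42.0, limma-voom 3.58.1 with sample weights, DESeq2 size factors, no filter, a fit of only the groups compared, a robust fit, log2(FPKM + 1) and log2(FPKM + 0.1), the unadjusted p, a fold over 2, the replicate block and each library left out. Leaving out T mouse 3 and TE mouse 4 together, and the gaps on log2 FPKM, were added after the data were seen. Promoters came from the RefSeq table and were located in GRCm39, with exons from GENCODE. The plots used Python 3.11.15 and matplotlib 3.10.9.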

Additional observations from a re-analysis of the deposited data

Results flagged for a closer look

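In 7 of 40 sets of 4 mice (10 genes in 4 groups), the highest mouse stood apart from its group, its gap to the next mouse taking more of the group's range than Dixon's 95% limit for 4 values. Chance flags about 1 in 20 such sets where values are normally distributed, and genes that vary together are not independent sets. On log2 FPKM, a scale chosen after the data were seen, 2 of the 7 stayed past that limit, Jun in E mouse 1 (0.924) and Egr1 in T mouse 3 (0.837), and the other 5 fell to between 0.735 and 0.808. T mouse 3 accounted for 4 of the 7. For Fos it had 29.8 FPKM against 4.39 to 6.82 FPKM in the other T mice, a gap of 0.904 of the range. For Fosb it had 2.00 FPKM against 0.0723 to 0.137 FPKM, a gap of 0.966. For Egr1 it had 15.99 FPKM against 2.99 to 3.93 FPKM, a gap of 0.928. For Btg2 it had 25.0 FPKM against 9.42 to 11.4 FPKM, a gap of 0.872. Fosb stood apart in C mouse 4 as well, at 0.635 FPKM against 0.149 to 0.218 FPKM and a gap of 0.856, and in TE mouse 3, at 0.747 FPKM against 0.0360 to 0.0723 FPKM and a gap of 0.949. Jun stood apart in E mouse 1, at 57.4 FPKM against 35.1 to 36.4 FPKM, a gap of 0.940. All 7 were high mice, and the cause was not tested.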

How the results depend on the processing

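The count of members called for the tumor over both training states was 0, and it was 1 (Ier3) with DESeq2, without the low-count filter, with the replicate block, and without C mouse 4, T mouse 3 or TE mouse 1 (0 to 1 over the libraries left out), and 2 at an unadjusted p. Between TE and E mice it was 1 with DESeq2 and 1 at an unadjusted p. Between T and C mice, for the interaction and for training it was 1 at an unadjusted p. The other counts stayed at 0 under the alternatives run. The replicate numbers did not pair the mice, and the block changed no other count of members.

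The adjusted p-value of Ier3 for the tumor was 0.0306 without the filter and 0.0356 with the replicate block, and its log2 fold change stayed between 0.39 and 0.53 over 26 alternatives. Between T and C mice Fosb turned to -0.79 with limma-voom and -1.47 without T mouse 3 and TE mouse 4, and Egr1 to -0.33 with limma-voom, -0.021 on log2(FPKM + 1) with and without the filter, -0.020 on log2(FPKM + 0.1) and -0.78 without those 2 mice. Btg2 turned to -0.12 without them, and Fosb between TE and T mice to 1.46. With 1 library left out, log2 fold changes ran from -1.47 to 1.65 for Fosb, -0.78 to 0.45 for Egr1 and -0.12 to 0.44 for Btg2 between T and C mice, and from -3.29 to 1.15 for Fosb between TE and T mice. The sets of 4 mice with 1 mouse apart numbered 7 on FPKM and 2 on log2 FPKM. Apart from the mice left out, the cause was not tested. The 16 log2 fold changes followed here were picked after their values were seen. Over all 70 of the members, 162 of 1860 values under alternatives had the opposite sign. Depth was even between libraries, and Fosb rests on 5 to 283 counts in each.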
